A study of Mus musculus with 23 samples.

Results

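The machinery by which macrophages take up dying cells was followed through 8 genes in cardiac macrophages of mice with a myeloid deletion of Smad7 and of their controls. They were the receptors Mertk, Axl, Stab1 and Itgb5, the bridging molecules Gas6, Pros1 and Mfge8, and the engulfment adaptor Elmo1. The 8 were picked by gene name, and each matched 1 of the 54532 genes in the deposited count table. All 8 were among the 16545 genes that passed the filter on low counts. The cells were Ly6G- CD11b+ cells sorted magnetically from hearts of C57BL/6 mice, and poly(A) RNA was sequenced. The MyS7KO mice carried Smad7 fl/fl and LyzM-Cre, which drives Cre recombinase from the lysozyme M promoter. The S7fl/fl mice were littermates with the same floxed Smad7 and no Cre named. LyzM-Cre acts in myeloid cells in general, so recombination was not limited to cardiac macrophages. Hearts were taken without infarction (baseline), or on day 3 or day 7 after permanent, non-reperfused ligation of the left anterior descending coronary artery. The 23 libraries were 3 MyS7KO and 3 S7fl/fl libraries at baseline, 5 and 5 at day 3, and 4 and 3 at day 7. Whether every library came from its own heart is not stated, and p-values therefore reflect only the spread among the libraries at hand. The study asked what endogenous Smad7, an inhibitor of TGF-beta signalling, does to macrophage phenotype after infarction.

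Efferocytosis is the engulfment of apoptotic cells. Mertk and Axl belong to the TAM family of receptor tyrosine kinases, together with Tyro3. They do not touch the dying cell directly: Gas6 and protein S, the product of Pros1, bind phosphatidylserine exposed on the dying cell at one end and the TAM receptor at the other. Mfge8 bridges phosphatidylserine to the integrins alpha-v beta-3 and alpha-v beta-5, and Itgb5 encodes the beta-5 subunit. Stab1 encodes stabilin-1, a scavenger receptor that binds phosphatidylserine. Elmo1 works with Dock180-type exchange factors to activate Rac, which reshapes actin around the corpse. In the infarcted heart, macrophages clear dying cardiomyocytes and neutrophils, and Mertk has been studied there for this role.

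Total counts per library ran from 16382079 to 18315308 in MyS7KO and 16512056 to 21011705 in S7fl/fl at baseline. At day 3 they ran from 16982136 to 23884938 in MyS7KO and 15479402 to 20471849 in S7fl/fl, and at day 7 from 16639456 to 20160503 in MyS7KO and 18018488 to 19549307 in S7fl/fl. Smad7 itself, in CPM (counts scaled to library size), was at 19.7 to 48.7 CPM in MyS7KO against 53.1 to 61.2 CPM in S7fl/fl at baseline, 10.5 to 19.9 CPM in MyS7KO against 30.4 to 42 CPM in S7fl/fl at day 3, and 16 to 33.4 CPM in MyS7KO against 57.4 to 70.2 CPM in S7fl/fl at day 7. It did not overlap between genotypes at any time, though it did not pass edgeR's quasi-likelihood test, with an adjusted p of 0.999, 0.11 and 0.0702 at the 3 times. All 8 macrophage markers checked exceeded 1 CPM in every group, and Ly6g, the neutrophil marker used to deplete the suspension, was under 1 CPM in every group. Other neutrophil markers were present. Of the 8 checked, Ly6g included, 4 to 6 exceeded 1 CPM in each group, and their sum ran from 93.2 to 212 CPM over all libraries. Markers of other cell types were present: all 8 fibroblast markers and all 8 endothelial markers exceeded 1 CPM in every group. Transcripts of Xist and of Y-linked genes split the libraries by sex. Day 7 had Xist in 4 of 4 MyS7KO libraries and Y-linked transcripts in 3 of 3 S7fl/fl libraries, so sex and genotype cannot be told apart there. At day 3, 1 MyS7KO and 1 S7fl/fl library held over 2% of the other sex's signal.

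Each of the 8 genes was called between times in at least 1 genotype, in several patterns, and none passed the test between genotypes. Mertk and Axl fell at day 3 and were back at or above baseline at day 7. Gas6 and Pros1 fell at day 3 and were still below baseline at day 7. Itgb5 and Elmo1 were higher than baseline at both times. Mfge8 rose at day 7 against day 3 in both genotypes. Stab1 was lower at day 7 in MyS7KO and higher at day 3 in S7fl/fl, with calls that rested on single libraries or settings for the comparisons with baseline. Changes were tested with edgeR's quasi-likelihood test over all 16545 genes with Benjamini-Hochberg adjustment, and calls were made where the adjusted p was under 0.05. At day 3 against baseline, 6 of the 8 were called in MyS7KO libraries, 2 higher and 4 lower, where 65.9% of all genes were called (30.7% higher and 35.2% lower). In S7fl/fl libraries 8 of the 8 were called, 3 higher and 5 lower, where 64% of all genes were called (29.9% higher and 34.1% lower). At day 7 against baseline, 6 were called in MyS7KO libraries, 3 in each direction, against a background of 44% (22.2% higher and 21.8% lower). In S7fl/fl libraries 5 were called, 3 higher and 2 lower, against a background of 50.2% (24.8% higher and 25.4% lower). Day 7 against day 3 gave 6 calls in MyS7KO libraries, 5 of them higher, where 39.6% of genes were called (20.5% higher and 19.1% lower). In S7fl/fl libraries it gave 5 calls, all higher, where 21.7% of genes were called (11.5% higher and 10.1% lower). Levels did not overlap between day 3 and baseline for 6 of 8 genes in MyS7KO (60.8% of all genes) and 7 of 8 in S7fl/fl (58.4%). Between day 7 and baseline the counts were 6 of 8 in MyS7KO (43.9%) and 5 of 8 in S7fl/fl (57.3%), and between day 7 and day 3 they were 6 of 8 (31.1%) and 5 of 8 (25.3%) in MyS7KO and S7fl/fl. The counts against baseline were thus near those of genes in general or somewhat above, and the comparisons within a genotype share their baseline or day 3 libraries. Mertk, Axl, Itgb5, Gas6, Pros1 and Elmo1, 6 genes, were called at day 3 against baseline in the same direction in both genotypes, as were 56.2% of all genes. At day 7 against baseline 4 were called in both (Itgb5, Gas6, Pros1 and Elmo1), against 37.5% of all genes. At day 7 against day 3, 5 were called in both (Mertk, Axl, Itgb5, Pros1 and Mfge8), against 17.9% of all genes. The share of libraries with Xist also differed between times, at 1 of 3, 3 of 5 and 4 of 4 in MyS7KO and 2 of 3, 2 of 5 and 0 of 3 in S7fl/fl at baseline, day 3 and day 7. With sex as a term, 1 of these calls was lost, that of Stab1 at day 7 against baseline in MyS7KO. As the RNA is from sorted bulk cells, fewer cells of a type and less RNA per cell cannot be told apart in any of these comparisons.

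**Figure D1:**
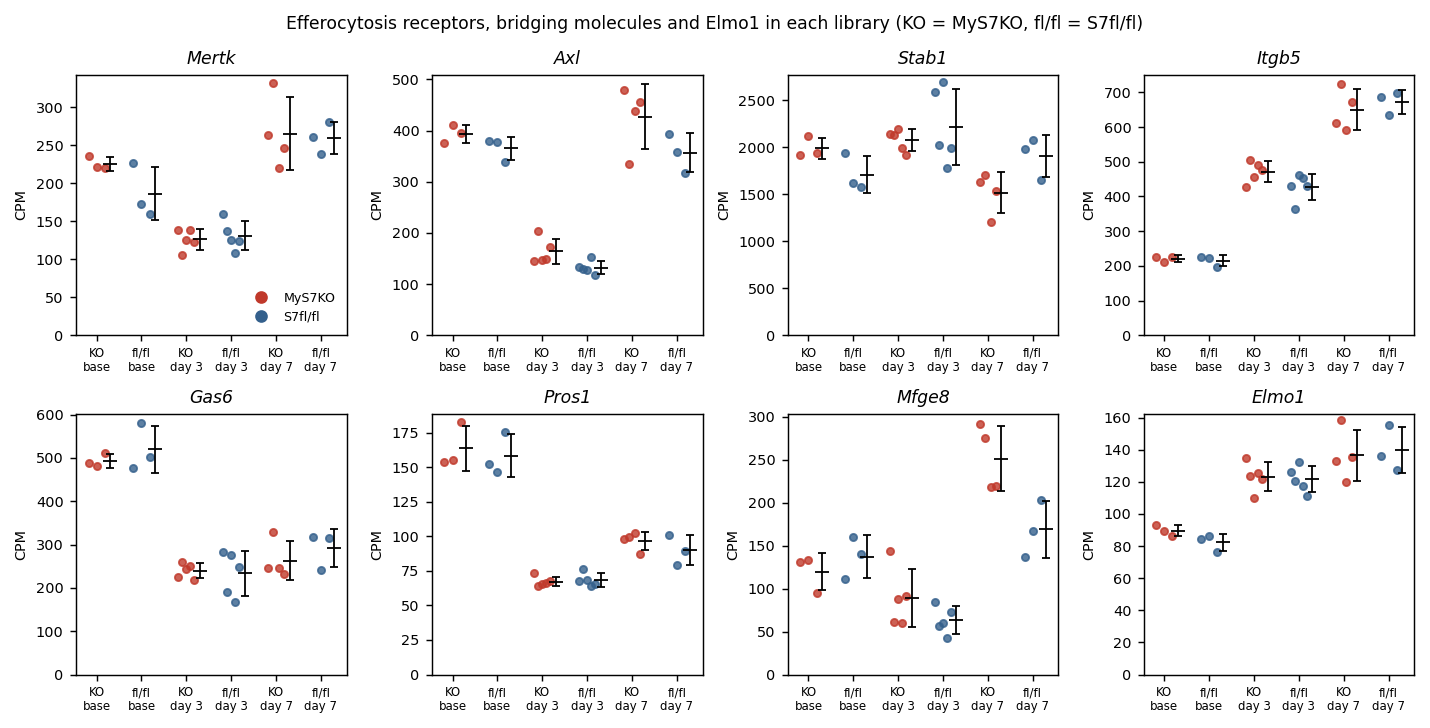
Level of each gene in every library, in CPM on a linear axis from 0, with MyS7KO (red) and S7fl/fl (blue) at baseline, day 3 and day 7; points are libraries and black bars the mean ± SD. Axl, Gas6 and Pros1 are lower in every day 3 library than in any baseline library of the same genotype, and Itgb5 is higher.

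Mertk, the TAM receptor most closely tied to corpse clearance by macrophages, had 236, 221 and 220.2 CPM in the MyS7KO libraries at baseline, 139, 105, 126, 138 and 123 CPM at day 3 and 263, 332, 220.1 and 247 CPM at day 7. In S7fl/fl libraries it had 226, 173 and 160.3 CPM at baseline, 159.9, 137, 126, 108 and 125 CPM at day 3 and 261, 239 and 281 CPM at day 7. Every day 3 library of MyS7KO was below every baseline library of that genotype, and the same held in S7fl/fl, though the highest day 3 and the lowest baseline library there nearly met. The log2 change at day 3 was -0.84 ± 0.13 (SE) in MyS7KO (adjusted p = 9.19e-06) and -0.51 ± 0.13 in S7fl/fl (adjusted p = 0.00205). The S7fl/fl call rested in part on 1 library: without S7fl/fl baseline replicate 1 the change was -0.29 (adjusted p = 0.0847). At day 7 against day 3 Mertk rose by 1.07 ± 0.12 on the log2 scale in MyS7KO (adjusted p = 7.19e-07) and by 0.99 ± 0.13 in S7fl/fl (adjusted p = 1.37e-05), with no overlap in either. Against baseline, day 7 was higher in S7fl/fl by 0.48 ± 0.15 (adjusted p = 0.0109), and the MyS7KO value of 0.24 ± 0.14 was not called (adjusted p = 0.184). Without S7fl/fl baseline replicate 3 the S7fl/fl value was 0.39 (adjusted p = 0.0654).

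Axl, the TAM receptor whose shed and membrane forms bind Gas6 tightly, followed the same course with larger steps. It had 375, 411 and 395 CPM in MyS7KO libraries at baseline, 146, 203, 146, 149 and 173 CPM at day 3 and 479, 335, 439 and 456 CPM at day 7. S7fl/fl libraries had 379, 377 and 339 CPM at baseline, 134, 129.8, 128, 152 and 118 CPM at day 3 and 393, 359 and 318 CPM at day 7. The day 3 libraries lay far below both other times in each genotype, and the baseline and day 7 ranges overlapped. The log2 change at day 3 against baseline was -1.27 ± 0.12 in MyS7KO (adjusted p = 5.02e-09) and -1.46 ± 0.12 in S7fl/fl (adjusted p = 6.23e-10). Between day 3 and day 7 it was 1.38 ± 0.11 in MyS7KO (adjusted p = 9.22e-09) and 1.43 ± 0.12 in S7fl/fl (adjusted p = 4.21e-08). By p-value Axl ranked 19 in MyS7KO and 7 in S7fl/fl among the 16545 genes in that comparison. Day 7 did not pass the test against baseline, with log2 changes of 0.12 ± 0.13 in MyS7KO and -0.034 ± 0.14 in S7fl/fl (adjusted p = 0.47 and 0.853). Tyro3, the TAM receptor found mostly in the nervous system, made up at most 0.353% of the summed FPKM of the 3 TAM receptors in any library. FPKM divides counts by gene length and depth, so levels of different genes can be set side by side on that scale.

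The promoter windows of Mertk and Axl are shown because both genes fell at day 3 and rose at day 7; windows from RefSeq matched 8 of the 8 genes by symbol. Each runs from 250 bases before to 50 bases after the gene start in RefSeq (GRCm38.p6), 300 bases in all, read 5′ to 3′ on the gene's strand. The Mertk window is chr2:128698665-128698964 on the plus strand and the Axl window chr7:25788684-25788983 on the minus strand. Capitals mark matches on either strand to a GC box (GGGCGG), an ETS core (GAGGAA), an AP-1 site (TGANTCA) or a CAGA box (CAGACA), the element bound by Smad3 and Smad4.
Mertk: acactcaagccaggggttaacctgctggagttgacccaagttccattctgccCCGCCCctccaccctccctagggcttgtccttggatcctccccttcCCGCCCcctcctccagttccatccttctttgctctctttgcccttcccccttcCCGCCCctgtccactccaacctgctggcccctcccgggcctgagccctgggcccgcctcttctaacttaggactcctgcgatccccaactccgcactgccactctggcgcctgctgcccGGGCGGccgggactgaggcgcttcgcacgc
Axl: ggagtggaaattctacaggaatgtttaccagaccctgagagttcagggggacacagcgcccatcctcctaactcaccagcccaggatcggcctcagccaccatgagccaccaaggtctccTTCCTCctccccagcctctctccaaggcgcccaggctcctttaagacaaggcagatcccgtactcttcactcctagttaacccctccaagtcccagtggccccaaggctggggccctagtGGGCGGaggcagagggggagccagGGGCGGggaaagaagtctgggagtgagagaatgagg
Mertk held 4 GC boxes and none of the other motifs. Axl held 2 GC boxes and 1 ETS core. Of 32851 mouse promoter windows of the same length, 35.7% held a GC box, 28.3% an ETS core, 7.81% an AP-1 site and 21.0% a CAGA box. A match describes the letters only, and no binding was measured.

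Gas6, the ligand of all TAM receptors, was among the most abundant of the 8 genes at baseline, and at day 3 its fitted level was 0.486-fold that of baseline in MyS7KO and 0.449-fold in S7fl/fl. It had 488, 481 and 511 CPM in MyS7KO libraries at baseline, 226, 260.1, 245, 251 and 218 CPM at day 3 and 247, 329, 246 and 231 CPM at day 7. In S7fl/fl libraries it had 477, 581 and 502 CPM at baseline, 282, 191, 276, 168 and 249 CPM at day 3 and 318, 242 and 316 CPM at day 7. All baseline libraries lay above all infarct libraries, and the day 3 and day 7 ranges overlapped in both genotypes. The log2 change at day 3 was -1.04 ± 0.15 in MyS7KO (adjusted p = 1.64e-06) and -1.16 ± 0.15 in S7fl/fl (adjusted p = 4.06e-07). The change at day 7 against baseline was -0.91 ± 0.15 in MyS7KO (adjusted p = 5.74e-05) and -0.83 ± 0.17 in S7fl/fl (adjusted p = 0.000263). Gas6 did not pass the test between day 7 and day 3, with log2 changes of 0.13 ± 0.14 in MyS7KO and 0.32 ± 0.15 in S7fl/fl (adjusted p = 0.457 and 0.124).

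Pros1, which encodes protein S, a plasma anticoagulant as well as a ligand of Mertk and Tyro3, fell in both genotypes and recovered in part. MyS7KO libraries had 153, 155 and 183 CPM at baseline, 73.2, 64.1, 65.7, 65.8 and 67.3 CPM at day 3 and 97.8, 99.5, 102 and 87.3 CPM at day 7. S7fl/fl libraries had 152, 147 and 176 CPM at baseline, 67.5, 76.4, 68.2, 64.2 and 65.2 CPM at day 3 and 101, 79.4 and 89.6 CPM at day 7. The 3 times did not overlap within either genotype, with day 3 lowest and day 7 in between. The log2 change at day 3 against baseline was -1.28 ± 0.09 in MyS7KO (adjusted p = 6.15e-11) and -1.21 ± 0.09 in S7fl/fl (adjusted p = 1.70e-10). At day 7 against day 3 it rose by 0.52 ± 0.085 in MyS7KO (adjusted p = 3.54e-05) and by 0.40 ± 0.092 in S7fl/fl (adjusted p = 0.00296). It stayed under baseline at day 7, with log2 changes of -0.76 ± 0.095 in MyS7KO and -0.81 ± 0.10 in S7fl/fl (adjusted p = 1.28e-06 and 1.26e-06).

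The windows of the ligands are printed in the same way, to set them beside those of the receptors. Gas6 lies at chr8:13494486-13494785 on the minus strand and Pros1 at chr16:62854057-62854356 on the plus strand.
Gas6: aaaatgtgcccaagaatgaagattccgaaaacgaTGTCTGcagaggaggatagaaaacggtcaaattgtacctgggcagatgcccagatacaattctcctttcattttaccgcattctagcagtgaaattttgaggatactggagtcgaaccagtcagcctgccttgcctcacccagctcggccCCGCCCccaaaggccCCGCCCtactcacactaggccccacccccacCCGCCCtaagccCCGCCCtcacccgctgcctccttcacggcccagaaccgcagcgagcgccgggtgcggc
Pros1: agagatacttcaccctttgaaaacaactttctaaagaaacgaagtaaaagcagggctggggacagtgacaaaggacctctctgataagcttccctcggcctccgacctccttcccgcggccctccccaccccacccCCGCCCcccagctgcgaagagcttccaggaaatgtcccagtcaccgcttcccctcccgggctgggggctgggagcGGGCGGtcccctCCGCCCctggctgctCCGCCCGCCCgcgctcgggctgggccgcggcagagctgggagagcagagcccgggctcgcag
Gas6 held 4 GC boxes and 1 CAGA box, the only CAGA box in the 9 windows of the 8 genes (Elmo1 has 2 windows). Pros1 held 5 GC boxes, 2 of which overlap in the run near its 3′ end. No window held an AP-1 site.

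**Figure D2:**
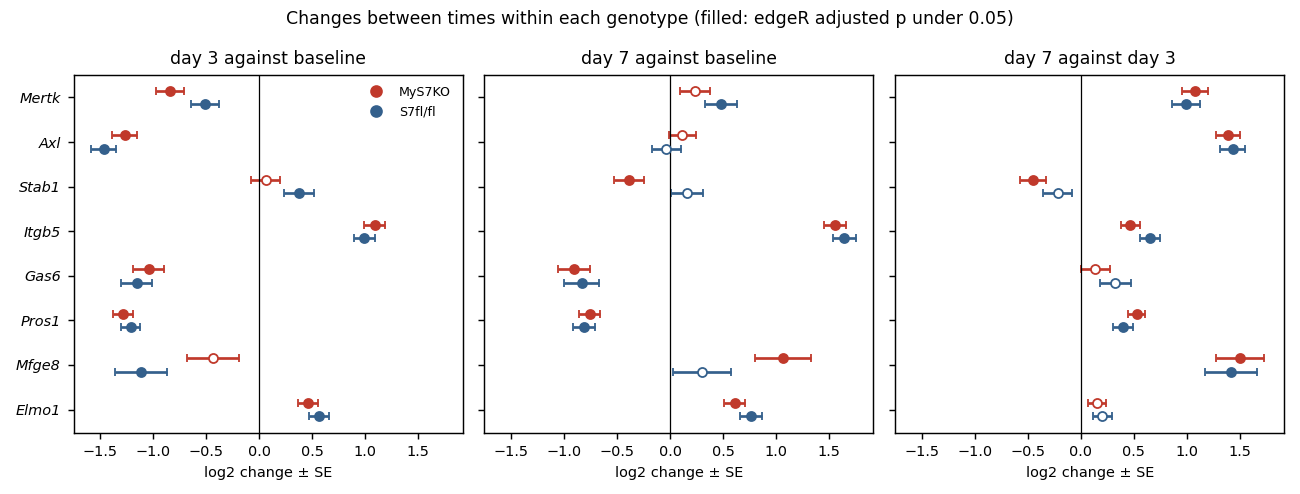
Log2 change ± SE (edgeR) between times for each gene, in MyS7KO (red) and S7fl/fl (blue); filled points passed the test at an adjusted p under 0.05 and open points did not. Mertk and Axl lie left of 0 at day 3 and right of 0 at day 7 against day 3, whereas Gas6 and Pros1 lie left of 0 in both comparisons with baseline.

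The balance of TAM receptors and ligands overlapped between baseline and day 3 and was higher in all day 7 libraries. The summed FPKM of Axl, Mertk and Tyro3, divided by that of Gas6 and Pros1, ran from 0.528 to 0.585 in MyS7KO libraries at baseline, 0.519 to 0.616 at day 3 and 0.934 to 1.32 at day 7. In S7fl/fl libraries it ran from 0.435 to 0.568 at baseline, 0.436 to 0.677 at day 3 and 0.879 to 1.11 at day 7. Every day 7 library thus lay above every library of the other times. Axl over Gas6 alone had medians of 0.392, 0.328 and 0.942 in MyS7KO at baseline, day 3 and day 7, and of 0.342, 0.24 and 0.626 in S7fl/fl. At day 7 the single-library range of Axl over Gas6 was 0.516 to 0.999 in MyS7KO and 0.51 to 0.751 in S7fl/fl, which overlap. The ratio is a description without a test, since it combines members whose separate changes are given above, and RNA levels do not give the amount of protein on the cell surface.

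**Figure D3:**
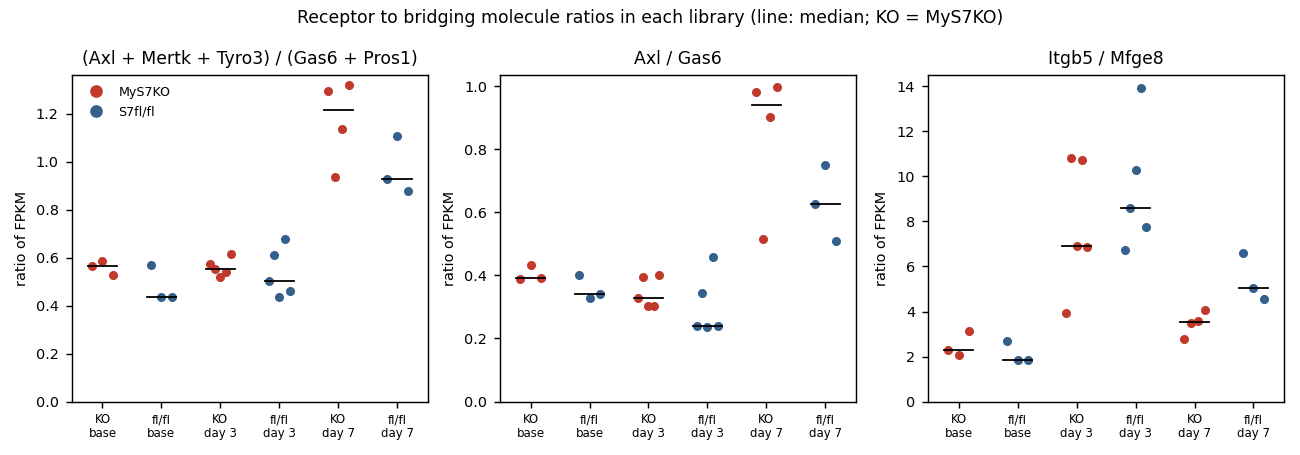
Ratios of FPKM in every library at baseline, day 3 and day 7, MyS7KO (red) left of S7fl/fl (blue), with a line at the median. The TAM receptor to ligand ratio is 0.879 or more in every day 7 library and 0.677 or less in every other, and the Itgb5 to Mfge8 ratio has its highest medians at day 3, with MyS7KO day 3 replicate 1 inside the day 7 range of that genotype.

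Mfge8, the secreted protein that bridges corpses to integrins, had its lowest group means at day 3 and its highest at day 7, and it varied most of the 8 between day 3 libraries, with a coefficient of variation of 37.9% in MyS7KO and 25.4% in S7fl/fl. MyS7KO libraries had 131, 133 and 95.2 CPM at baseline, 143, 61.5, 87.4, 60.3 and 91.2 CPM at day 3 and 291, 275, 218 and 219.9 CPM at day 7. S7fl/fl libraries had 111, 161 and 139.8 CPM at baseline, 84.5, 56.1, 59.5, 42.9 and 73.1 CPM at day 3 and 137, 167 and 203 CPM at day 7. Day 7 lay above day 3 without overlap in both genotypes. Baseline and day 3 did not overlap in S7fl/fl, but MyS7KO day 3 replicate 1 was above all baseline libraries of its genotype. Between day 3 and day 7 Mfge8 rose by 1.5 ± 0.23 on the log2 scale in MyS7KO (adjusted p = 3.11e-05) and by 1.42 ± 0.24 in S7fl/fl (adjusted p = 0.000309). The fall at day 3 was called in S7fl/fl (-1.11 ± 0.24, adjusted p = 0.000494) and not in MyS7KO (-0.43 ± 0.25, adjusted p = 0.126). Without MyS7KO day 3 replicate 1 the MyS7KO value was -0.67 and passed (adjusted p = 0.00817). The test of the difference between genotypes in this change gave 0.68 ± 0.35 (adjusted p = 0.878), so the 2 genotypes were not shown to differ. Day 7 against baseline was called in MyS7KO (1.07 ± 0.27, adjusted p = 0.00296) and not in S7fl/fl (0.30 ± 0.28, adjusted p = 0.382), and again the difference did not pass (0.77 ± 0.38, adjusted p = 0.877).

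Itgb5 rose at each step in both genotypes. MyS7KO libraries had 227, 209.8 and 226 CPM at baseline, 427, 504, 456, 491 and 475 CPM at day 3 and 611, 725, 593 and 673 CPM at day 7. S7fl/fl libraries had 226, 223 and 196 CPM at baseline, 431, 365, 462, 452 and 429 CPM at day 3 and 686, 634 and 699 CPM at day 7. No ranges overlapped between times within a genotype. At day 3 the log2 change was 1.09 ± 0.098 in MyS7KO (adjusted p = 2.56e-09) and 0.99 ± 0.097 in S7fl/fl (adjusted p = 1.08e-08). Day 7 differed from baseline by 1.56 ± 0.10 in MyS7KO, a 2.94-fold level, and 1.65 ± 0.11 in S7fl/fl, a 3.13-fold level (adjusted p = 7.03e-11 and 6.16e-11). Itgb5 ranked 40 and 38 among the 16545 genes by p-value in these 2 comparisons. The step between day 3 and day 7 was 0.47 ± 0.086 in MyS7KO and 0.65 ± 0.092 in S7fl/fl (adjusted p = 0.00015 and 2.46e-05). The Itgb5 to Mfge8 ratio in FPKM had a median of 6.9 in MyS7KO and 8.6 in S7fl/fl at day 3. At baseline the medians were 2.29 in MyS7KO and 1.86 in S7fl/fl, and at day 7 3.54 in MyS7KO and 5.03 in S7fl/fl. Day 3 and day 7 overlapped in MyS7KO (3.94 to 10.8 at day 3 and 2.77 to 4.05 at day 7) and did not in S7fl/fl (6.75 to 13.9 at day 3 and 4.56 to 6.61 at day 7).

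Stab1 was among the most abundant of the 8 genes per length at every time. MyS7KO libraries had 1917, 2119 and 1934 CPM at baseline, 2142, 2135, 2193, 1994 and 1919 CPM at day 3 and 1627, 1706, 1205 and 1536 CPM at day 7. S7fl/fl libraries had 1936, 1616 and 1576 CPM at baseline, 2591, 2021, 2699.8, 1784 and 1995 CPM at day 3 and 1984, 2081 and 1654 CPM at day 7. In MyS7KO the day 7 libraries were all below those of the other times, and in S7fl/fl the 3 times overlapped. Its calls were weak: in MyS7KO, day 7 was lower than baseline, with a log2 change of -0.39 ± 0.14 (adjusted p = 0.0287), and lower than day 3, with -0.45 ± 0.13 (adjusted p = 0.00624). In S7fl/fl, day 3 was higher than baseline by 0.38 ± 0.14 (adjusted p = 0.0206). When only the 2 groups compared were fitted, the first gave an adjusted p of 0.0748 and the last 0.0587, and with sex as a term the first gave 0.126. Single libraries also decided both calls. The first had an adjusted p of 0.0687 without MyS7KO baseline replicate 1, 0.14 without MyS7KO baseline replicate 2 and 0.101 without MyS7KO day 7 replicate 4. The last had 0.0714 without S7fl/fl baseline replicate 2, 0.0863 without S7fl/fl baseline replicate 3, 0.0559 when replicate 1 of day 3 in that genotype was left out, and 0.0552 when its replicate 3 was.

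Elmo1 rose early and held. MyS7KO libraries had 93, 89.7 and 86 CPM at baseline, 135, 124, 109.9, 126 and 122 CPM at day 3 and 133, 158, 119.8 and 136 CPM at day 7. S7fl/fl libraries had 84.5, 86.3 and 76.4 CPM at baseline, 126, 120.2, 132, 118 and 111 CPM at day 3 and 136, 156 and 128 CPM at day 7. Baseline lay below both later times without overlap, and days 3 and 7 overlapped. The log2 change was 0.46 ± 0.094 at day 3 and 0.61 ± 0.098 at day 7 in MyS7KO (adjusted p = 0.000178 and 3.02e-05). In S7fl/fl it was 0.56 ± 0.094 at day 3 and 0.76 ± 0.10 at day 7 (adjusted p = 1.98e-05 and 3.21e-06). Day 7 did not pass against day 3 in either genotype (0.15 ± 0.085 in MyS7KO, 0.20 ± 0.092 in S7fl/fl). The 8 macrophage markers summed to 5906 to 7588 CPM in MyS7KO and 5542 to 6133 CPM in S7fl/fl at baseline. At day 3 the sum was 8202 to 9960 in MyS7KO and 8402 to 9808 CPM in S7fl/fl. At day 7 it was 7450 to 10020 in MyS7KO and 10028 to 11275 CPM in S7fl/fl. At day 3, 5 were called higher and 2 lower in MyS7KO (30.7% and 35.2% of all genes). In S7fl/fl 4 were higher and 2 lower (29.9% and 34.1%). The part of macrophages in Elmo1 and Itgb5 levels was not tested.

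Set side by side per length, in FPKM, the order of the 8 genes turned over with time. At baseline Gas6 (193 ± 6.62 FPKM in MyS7KO, 202 ± 21.5 FPKM in S7fl/fl; mean ± SD, n = 3 each) and Stab1 (193 ± 9.9 FPKM in MyS7KO, 165 ± 20.5 FPKM in S7fl/fl) led, and their ranges overlapped. Axl, Itgb5, Mertk, Pros1 and Mfge8 followed in that order in both genotypes, with the ranges of Mertk and Pros1 overlapping in S7fl/fl. Elmo1 had the lowest mean in all 6 groups, at 7.11 ± 0.29 FPKM in MyS7KO and 6.48 ± 0.485 FPKM in S7fl/fl at baseline, with a deposited gene length of 12580 bases, the longest of the 8. At day 3 Stab1 led alone and Itgb5 was next, at 132 ± 9.02 FPKM in MyS7KO and 119 ± 10.1 FPKM in S7fl/fl (n = 5 each). Among neighbours at day 3, Axl and Mertk overlapped in both genotypes, and so did Mfge8 and Pros1. Mertk and Mfge8 overlapped in MyS7KO, and Itgb5 and Gas6, and Mfge8 and Elmo1, in S7fl/fl. At day 7 Itgb5 led by its mean, at 182 ± 17.2 FPKM in MyS7KO (n = 4) and 186 ± 9.35 FPKM in S7fl/fl (n = 3), with a range that overlapped that of Stab1 in both genotypes. Axl and Mertk also overlapped at day 7 in both, and in MyS7KO so did Stab1 and Gas6, Gas6 and Axl, and Mertk and Mfge8.

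Between genotypes, none of the 8 genes passed the test at any time. At baseline 0 of 8 were called, where 0.0121% of all genes were called, and 0 had an unadjusted p under 0.05, where 2.27% of genes did. At day 3 the count was 0 of 8 against a background of 0.0121%, and 2 genes, Axl and Mfge8, had an unadjusted p under 0.05, where 3.59% of genes did. At day 7 it was 0 of 8 against 0.0181%, and 2 genes, Mfge8 and Stab1, had an unadjusted p under 0.05, where 13.1% of genes did. DESeq2 and limma on log2 FPKM also called none of the 8. The difference of the genotype effect between times was called for 0 of 8 genes in each of the 3 comparisons of times, where 0% of all genes were called, and 1 gene, Stab1 for day 7 and baseline, had an unadjusted p under 0.05. That p was 0.0148 for a difference of -0.55 ± 0.21 (adjusted p = 0.877), where 5.21% of genes were under 0.05. For day 3 and baseline 0 of 8 were, where 4.48% of genes were, and for day 7 and day 3 0 of 8, where 10.4% were.

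Axl had the lowest p of these. At day 3 it was at 164 ± 24.8 CPM in MyS7KO and 132 ± 12.5 CPM in S7fl/fl (mean ± SD, n = 5 each), a log2 difference of 0.31 ± 0.11 with a 95% interval of 0.089 to 0.53 (unadjusted p = 0.00786, adjusted p = 0.982). The ranges overlapped, as 1 S7fl/fl library had 152 CPM. With sex as a term the difference was 0.28 (adjusted p = 0.977), and without the 2 libraries of mixed sex signal it was 0.40 (adjusted p = 1). At day 7 the Axl difference was 0.26 ± 0.13 (interval -0.0028 to 0.52, adjusted p = 0.386), and at baseline 0.11 ± 0.14 (interval -0.17 to 0.39).

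Mfge8 was at 88.7 ± 33.6 CPM in MyS7KO and 63.2 ± 16 CPM in S7fl/fl at day 3 (n = 5 each), a log2 difference of 0.49 ± 0.22 (interval 0.037 to 0.94, unadjusted p = 0.0355, adjusted p = 0.982). Without MyS7KO day 3 replicate 1, the library at 143 CPM, the difference was 0.25 (adjusted p = 0.862). With sex as a term the day 3 difference was 0.52 (adjusted p = 0.977), and without the 2 libraries of mixed sex signal it was 0.38 (adjusted p = 1). At day 7 it was at 251 ± 37.6 CPM in MyS7KO (n = 4) and 169 ± 32.9 CPM in S7fl/fl (n = 3), a difference of 0.57 ± 0.26 (interval 0.028 to 1.12, unadjusted p = 0.0403, adjusted p = 0.368). With sex as a term, estimated from the earlier times, the day 7 difference was 0.83 (adjusted p = 0.291). The summed fibroblast markers at day 7 ran from 1775 to 5088 CPM in MyS7KO and 1286 to 3401 CPM in S7fl/fl, and their part in the difference was not tested. Mfge8 at day 7 was the 1 case among the 8 genes and 3 times in which the genotypes did not overlap, where 8.9% of all genes did not overlap at day 7, 0.562% at day 3 and 6.2% at baseline. Stab1 at day 7 was at 1519 ± 220.3 CPM in MyS7KO and 1906 ± 223 CPM in S7fl/fl, a difference of -0.33 ± 0.14 (interval -0.62 to -0.035, unadjusted p = 0.0297, adjusted p = 0.352). With sex as a term it was -0.19 (adjusted p = 0.621).

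For the other genes the intervals show what size of difference the libraries leave possible. The Mertk difference was 0.27 at baseline (interval -0.038 to 0.59), -0.054 at day 3 (interval -0.30 to 0.19) and 0.029 at day 7 (interval -0.26 to 0.32). For Gas6 it was -0.076 at baseline (interval -0.42 to 0.27), 0.039 at day 3 (interval -0.23 to 0.30) and -0.15 at day 7 (interval -0.47 to 0.17). The intervals of Pros1, Itgb5 and Elmo1 were narrower and all included 0. At day 3 they ran from -0.19 to 0.14 for Pros1, -0.031 to 0.31 for Itgb5 and -0.15 to 0.18 for Elmo1.

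**Figure D4:**
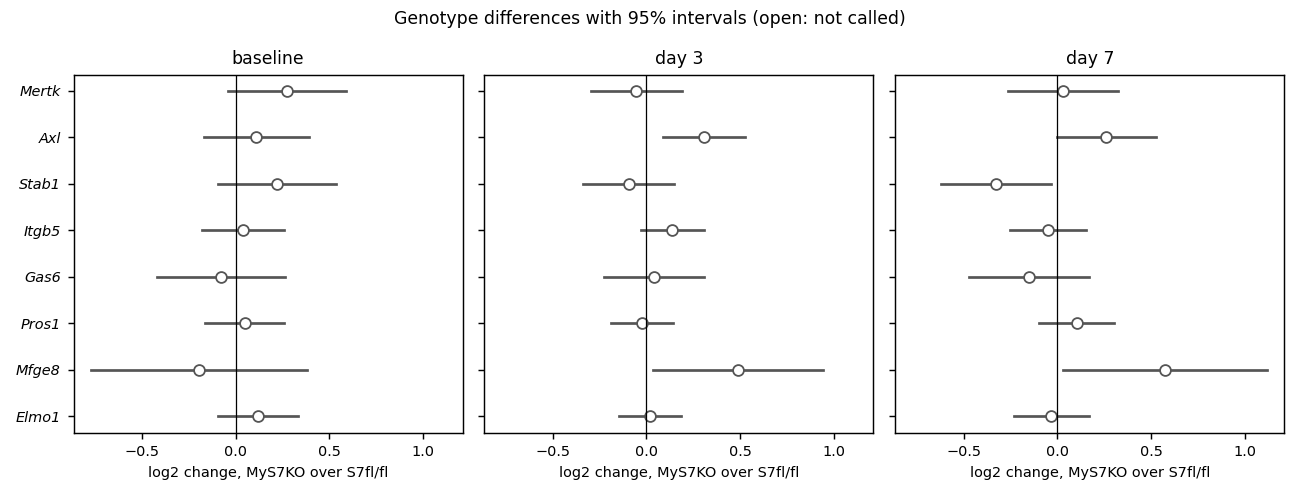
Log2 difference of MyS7KO over S7fl/fl for each gene at baseline, day 3 and day 7, with 95% intervals from edgeR; open points mark genes not called. The intervals of Axl and Mfge8 at day 3 and of Mfge8 and Stab1 at day 7 lie to one side of 0, and none of the 8 passed after adjustment over all genes.

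Markers of other cells moved with time as well, and the marker counts here and in the paragraphs that follow are of markers called. Beside them, 30.7% of all genes were called higher and 35.2% lower at day 3 against baseline in MyS7KO. In S7fl/fl these shares were 29.9% and 34.1%. At day 7 against baseline they were 22.2% and 21.8% in MyS7KO and 24.8% and 25.4% in S7fl/fl. Day 7 against day 3 had 20.5% and 19.1% in MyS7KO and 11.5% and 10.1% in S7fl/fl. The 6 markers of resident cardiac macrophages (Timd4, Lyve1, Folr2, Cd163, Mrc1 and Vsig4) were all lower at day 3 and at day 7 than at baseline in both genotypes. Their summed level ran from 3788 to 4872 CPM in MyS7KO and 2958 to 4222 CPM in S7fl/fl at baseline. At day 3 it was 765 to 1161 CPM in MyS7KO and 926 to 1499.7 CPM in S7fl/fl, and at day 7 685 to 1176 CPM in MyS7KO and 988 to 1115 CPM in S7fl/fl. None was at 0 in any group. Between day 3 and day 7, 4 of the 6 were called higher in MyS7KO and 1 in S7fl/fl, and none lower. Their median log2 change was 1.04 in MyS7KO and 0.67 in S7fl/fl, a rise that the sum does not show. The sum was low at day 3 and day 7, as were Gas6 and Pros1, and its part in their levels was not tested. Axl at day 7 did not pass the test against baseline in either genotype. Mertk at day 7 was called above baseline in S7fl/fl (edgeR adjusted p = 0.0109), a call lost when a baseline library was left out. It was not called in MyS7KO (adjusted p = 0.184). The part of resident macrophages in the levels of Mertk and Axl was not tested.

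Markers of classical monocytes (Ly6c2, Ccr2, Plac8 and Chil3) were higher at day 3, when Mertk and Axl were lower. Their sum ran from 122 to 141 CPM in MyS7KO and 160.4 to 193 CPM in S7fl/fl at baseline. It ran from 576 to 787 CPM in MyS7KO and 549 to 1523 CPM in S7fl/fl at day 3, and from 222 to 562 CPM in MyS7KO and 442 to 667 CPM in S7fl/fl at day 7. Of the 4 markers, 4 rose at day 3 against baseline in each genotype, and 3 fell at day 7 against day 3 in MyS7KO and 2 in S7fl/fl. None was at 0 in any group. The part of these cells in the levels of Mertk and Axl was not tested.

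The 8 fibroblast markers (Col1a1, Col1a2, Col3a1, Dcn, Pdgfra, Postn, Lum and Tcf21) summed to 505 to 1048 CPM in MyS7KO and 711 to 1062 CPM in S7fl/fl at baseline. They summed to 547 to 1220.5 CPM in MyS7KO and 248 to 1091 CPM in S7fl/fl at day 3, and to 1775 to 5088 CPM in MyS7KO and 1286 to 3401 CPM in S7fl/fl at day 7. All 8 rose at day 7 against day 3 in MyS7KO and 6 of 8 in S7fl/fl, and none was at 0 in any group. Fibroblasts also express Axl, Gas6 and Mfge8. At day 3 the library with the highest Mfge8, MyS7KO replicate 1 at 143 CPM, also had the highest fibroblast sum of 1220.5 CPM. The day 3 library with the lowest Mfge8, S7fl/fl replicate 4 at 42.9 CPM, had the lowest sum of 248 CPM. Libraries between these extremes did not keep to that order. S7fl/fl day 3 replicate 2 had a sum of 819 CPM with Mfge8 at 56.1 CPM. MyS7KO day 3 replicate 5 had a lower sum of 547 CPM with a higher Mfge8 of 91.2 CPM. At day 7, MyS7KO replicate 3 had the lowest fibroblast sum of its group at 1775 CPM, with Mfge8 at 275 CPM, the second highest of that group, and Axl at 335 CPM, the lowest. The part of fibroblast RNA in the levels of Mfge8 and Axl was not tested.

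The 8 endothelial markers all fell at day 3 and were all below baseline at day 7 in both genotypes. Their sum was 949 to 2234 CPM in MyS7KO and 1637 to 2106 CPM in S7fl/fl at baseline, 396 to 697 CPM in MyS7KO and 299 to 657 CPM in S7fl/fl at day 3, and 168 to 1044 CPM in MyS7KO and 208 to 403 CPM in S7fl/fl at day 7. The 6 mural cell markers all fell at day 3 in both genotypes. At day 7, 4 of 6 were called below baseline in MyS7KO, where 2 were not called, and 6 of 6 in S7fl/fl. Their sum was 1026 to 1692 CPM in MyS7KO and 1257 to 1820.1 CPM in S7fl/fl at baseline, 153 to 247 CPM in MyS7KO and 130.1 to 221 CPM in S7fl/fl at day 3, and 69.6 to 549 CPM in MyS7KO and 84 to 256 CPM in S7fl/fl at day 7. Gas6 and Pros1 were likewise below baseline at both times, and the part of endothelial and mural RNA in their levels was not tested.

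**Figure D5:**
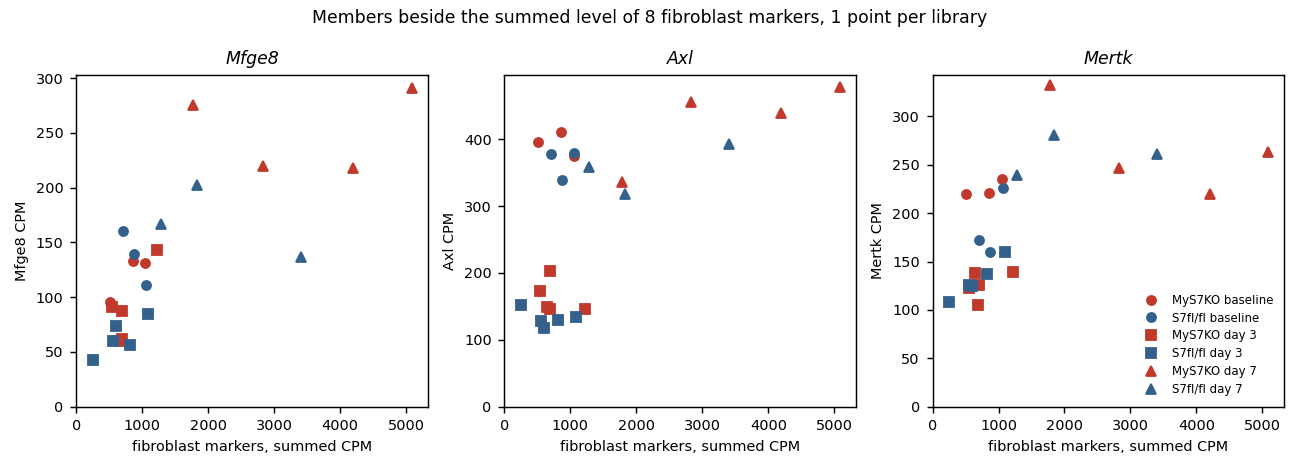
Level of Mfge8, Axl and Mertk in CPM against the summed CPM of 8 fibroblast markers, 1 point per library, with colour for genotype and shape for time. Axl at day 3 is low across the whole range of fibroblast sums at that time, and day 7 libraries hold the highest sums.

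The wider pathway was followed through 60 other genes in 6 lists, of which 57 were tested and 3 (Adgrb1, Havcr1 and Tub) had too few counts. Between genotypes 0 of 57 were called at each time. At day 3 against baseline 33 rose and 13 fell in MyS7KO libraries, and 33 rose and 11 fell in S7fl/fl libraries. By day 7, 34 had risen relative to baseline and 6 had fallen in MyS7KO, and 35 had risen and 8 had fallen in S7fl/fl. Between day 3 and day 7, 15 rose and 10 fell in MyS7KO and 12 rose and 7 fell in S7fl/fl. Over all genes, 30.7% rose and 35.2% fell at day 3 in MyS7KO, and 29.9% rose and 34.1% fell in S7fl/fl. The shares at day 7 against baseline were 22.2% and 21.8% in MyS7KO and 24.8% and 25.4% in S7fl/fl, and at day 7 against day 3 20.5% and 19.1% in MyS7KO and 11.5% and 10.1% in S7fl/fl. The pathway genes' median log2 change at day 3 was 0.48 in MyS7KO and 0.54 in S7fl/fl, beside -0.097 and -0.062 over all genes.

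Among 14 tested phagocytic receptors, 6 rose and 4 fell at day 3 in each genotype, where 30.7% of all genes rose and 35.2% fell in MyS7KO and 29.9% rose and 34.1% fell in S7fl/fl. Trem2, a lipid-sensing receptor, was at 76.3 ± 20.7 CPM at baseline, 489 ± 72.2 CPM at day 3 and 586 ± 76.5 CPM at day 7 in MyS7KO, and at 80.7 ± 13.5, 434 ± 56.4 and 666 ± 61.2 CPM in S7fl/fl. Cd300lf, which binds phosphatidylserine, was at 7.58 ± 1.3, 116 ± 10.4 and 99.3 ± 21.5 CPM in MyS7KO at the 3 times and at 8.15 ± 0.821, 126 ± 24.7 and 107 ± 17.1 CPM in S7fl/fl. It rose at day 3 by 3.94 ± 0.19 and 3.94 ± 0.19 on the log2 scale in MyS7KO and S7fl/fl (adjusted p = 2.94e-13 and 3.29e-13). Cd36, a scavenger receptor for oxidised lipid, was lower at day 7 than at day 3 in S7fl/fl (log2 change -0.76 ± 0.15, adjusted p = 0.00059). Havcr2, which encodes TIM-3, rose at day 7 against day 3 by 0.64 ± 0.13 in MyS7KO and 0.65 ± 0.14 in S7fl/fl (adjusted p = 0.00035 and 0.00145). Cd300a, another of these phagocytic receptors, rose at day 7 against day 3 in MyS7KO by 0.90 ± 0.11 (adjusted p = 1.43e-06). Trem2 and Cd300lf were thus above baseline at day 3, when Mertk and Axl were at their lowest.

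Of 9 tested bridging and eat-me molecules, 5 rose and 2 fell at day 3 in MyS7KO, and 5 rose and 3 fell in S7fl/fl, beside 30.7% of all genes higher and 35.2% lower in MyS7KO and 29.9% higher and 34.1% lower in S7fl/fl. Thbs1, thrombospondin-1, which links corpses to Cd36 and the alpha-v integrin, was at 354 ± 145, 7285 ± 1501 and 2399.5 ± 405 CPM in MyS7KO at baseline, day 3 and day 7. In S7fl/fl it was at 338 ± 44.6, 9855 ± 1953 and 3871 ± 721 CPM. Lgals3, galectin-3, was at 168 ± 21.4, 2027 ± 266 and 1396 ± 225 CPM in MyS7KO and at 179.9 ± 36.5, 1816 ± 214 and 1411 ± 384 CPM in S7fl/fl. Both rose at day 3, when Gas6 and Pros1 fell: Lgals3 by 3.59 ± 0.20 in MyS7KO and 3.34 ± 0.19 in S7fl/fl (adjusted p = 1.45e-12 and 3.59e-12), and Thbs1 by 4.36 ± 0.28 and 4.86 ± 0.29 (adjusted p = 2.53e-11 and 8.51e-12). Calr, the eat-me signal calreticulin and a chaperone of the endoplasmic reticulum, fell at day 7 against day 3, with log2 changes of -1.33 ± 0.11 in MyS7KO and -0.87 ± 0.12 in S7fl/fl (adjusted p = 1.83e-08 and 2.46e-05). C1qc, a chain of complement C1q, rose at day 7 against day 3 in S7fl/fl by 1.08 ± 0.15 (adjusted p = 1.47e-05). In MyS7KO all 9 genes of this list were called between these days, 4 higher and 5 lower, so C1qc was called there too. Of all genes, 20.5% were higher and 19.1% lower in that comparison.

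Of 17 engulfment signalling genes, 10 rose at day 3 in each genotype, with 6 lower in MyS7KO and 3 lower in S7fl/fl. The shares of all genes were 30.7% higher and 35.2% lower in MyS7KO and 29.9% higher and 34.1% lower in S7fl/fl, so the count that fell in MyS7KO was at the background. Rhog, the small GTPase that recruits Elmo1, rose at day 3 by 1.46 ± 0.14 in MyS7KO and 1.34 ± 0.14 in S7fl/fl (adjusted p = 1.07e-08 and 3.78e-08), alongside Elmo1 itself. Dock5, an exchange factor of the Dock180 family, was higher at day 7 than at baseline by 2.02 ± 0.25 in MyS7KO (adjusted p = 1.95e-06). Gulp1, an engulfment adaptor, fell at day 3 in MyS7KO (log2 change -2.98 ± 0.39, adjusted p = 6.36e-07), at a low level of 0.83 ± 0.224 CPM at day 3 against 6.56 ± 2.51 CPM at baseline. Rac2, the blood-cell Rac GTPase, rose at day 3 in S7fl/fl by 0.89 ± 0.11 (adjusted p = 5.27e-07). Crkl, an adaptor, and Nckap1l, a subunit of the WAVE complex, moved by less than 0.4 on the log2 scale between days 3 and 7, lower for Crkl and higher for Nckap1l at day 7 in both genotypes.

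Of 8 lipid response genes, 5 rose and none fell at day 3 and at day 7 against baseline in each genotype. Of all genes, 30.7% rose in MyS7KO and 29.9% in S7fl/fl at day 3, and 22.2% in MyS7KO and 24.8% in S7fl/fl at day 7. Nr1h3, the oxysterol receptor LXR-alpha that raises Mertk transcription in mouse macrophages, was at 7.74 ± 1.74, 32.1 ± 4.01 and 17.5 ± 3.04 CPM in MyS7KO at baseline, day 3 and day 7, and at 7.69 ± 0.582, 32 ± 5.36 and 18.6 ± 3.37 CPM in S7fl/fl. It fell at day 7 against day 3, with log2 changes of -0.88 ± 0.15 in MyS7KO and -0.78 ± 0.16 in S7fl/fl (adjusted p = 5.75e-05 and 0.00121). The mean of Nr1h3 was highest at day 3, when that of Mertk was lowest, and its part in the Mertk level was not tested. Abcg1, a cholesterol exporter, rose at day 3 by 1.18 ± 0.18 and 1.19 ± 0.18 in MyS7KO and S7fl/fl (adjusted p = 5.65e-06 and 5.11e-06). Rxra, the partner of LXR, was higher at day 7 than at day 3 in S7fl/fl by 0.44 ± 0.12 (adjusted p = 0.00893). Of 7 find-me receptors and do-not-eat-me signals, 5 rose and 1 fell at day 3 in each genotype, against the same 30.7% and 35.2% of all genes in MyS7KO and 29.9% and 34.1% in S7fl/fl. Sirpa, the macrophage receptor for the do-not-eat-me signal Cd47, rose at day 3 by 1.26 ± 0.13 in MyS7KO and 1.16 ± 0.13 in S7fl/fl (adjusted p = 2.42e-08 and 8.11e-08), and Cd47 rose by 0.98 ± 0.10 in MyS7KO (adjusted p = 3.79e-08). S1pr1, a receptor for the find-me signal sphingosine-1-phosphate, fell at day 3 in S7fl/fl (log2 change -1.18 ± 0.14, adjusted p = 1.91e-07). Cx3cr1, the receptor of fractalkine, was higher at day 7 than at day 3 by 0.63 ± 0.18 in MyS7KO and 1.38 ± 0.19 in S7fl/fl (adjusted p = 0.00768 and 2.55e-05), and Cd24a, a do-not-eat-me signal, was lower, with log2 changes of -1.36 ± 0.24 in MyS7KO and -0.96 ± 0.26 in S7fl/fl (adjusted p = 0.00015 and 0.0118). Adam10 and Adam17, the proteases that shed Axl and Mertk from the cell surface, both rose at day 3 in both genotypes. The larger of these was Adam10, by 0.67 ± 0.11 in MyS7KO and 0.87 ± 0.12 in S7fl/fl (adjusted p = 2.37e-05 and 8.56e-07), while Adam17 rose by 0.29 ± 0.11 and 0.53 ± 0.11 (adjusted p = 0.0216 and 0.000218).

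For each of the 8, the 2 genes with the most similar course over the 23 libraries were found among 11180 candidates, by the root-mean-square difference of log2 CPM after centring each gene on its mean. For Axl, with a spread of 0.72 around its own mean, these were Rasgef1b at a difference of 0.19 and Icosl at 0.22. For Mertk, with a spread of 0.49, they were Irs2 at 0.18 and Tlr7 at 0.19. Gas6, with a spread of 0.50, had Slc9a9 and Agpat3, both at 0.19. Pros1, with a spread of 0.51, had Stx17 at 0.13 and Snx32 at 0.14. Itgb5, with a spread of 0.61, had Ptk2b and Paqr7, both at 0.14. Mfge8, with a spread of 0.76, had the least close matches, P3h3 at 0.35 and Angptl2 at 0.36. Stab1 had Nup160 and Dhx9 and Elmo1 had Ptbp1 and Senp2, at differences of 0.16, 0.17, 0.091 and 0.095, against spreads of only 0.25 and 0.28. These are the same samples in the same groups, so closeness describes a shared course over time and nothing of function or control. Among pairs of members Gas6 and Pros1 had the closest course, at a difference of 0.24. The member closest to Axl was Mertk, at 0.42, beside spreads of 0.72 for Axl and 0.49 for Mertk.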

How the data were processed

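The labels place the 23 libraries in 6 groups, by genotype and time. Reads were handled with TopHat2 2.0.9, HTSeq 0.6.1 and Cufflinks 2.1.1 on mm10 (GRCm38.p6), per the submitters' processing notes, which do not assign a step to each tool here. Strand use in counting is not given in the sources used here. The deposited counts are whole numbers per gene, and the authors' deposited FPKM values equal count over gene length and a library constant within 1% for all genes with 100 or more counts. The deposited gene length was used only to set levels of different genes side by side.

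Genes with low counts were removed with edgeR's filterByExpr at its default settings by group (16545 of 54532 kept). After TMM scaling, counts went into edgeR 4.0.16 under R 4.3.3 for the quasi-likelihood F test, all 6 groups in 1 model, Benjamini-Hochberg adjustment over all genes tested and a threshold of 0.05. CPM values use TMM-scaled library sizes. SEs are the log2 change over the square root of F, and intervals are 95%. The method was tested on simulated data. The alternatives were RLE scaling, DESeq2 1.42.0, no filter, limma 3.58.1 on log2(FPKM + 1) and log2(FPKM + 0.1), only the groups compared, sex as a term, leaving out libraries, and the replicate number as a block. Within-group pairs of libraries differed by more than sampling noise (chi-square per degree of freedom 8.73 to 52.1 over 35 pairs). Members and lists were chosen with earlier results of these data known, and 1 marker gene is not reported here. The genes named were the 8 members, called genes of the pathway lists in the genotype comparisons, up to 2 called genes per list with the lowest p in the time comparisons, Smad7, sex genes, and the 2 genes most like each member among genes whose average log2 CPM reached 1, with predicted genes (Gm and Rik names) left out. Where 1 genotype is given for a pathway gene, the rule did not pick it in the other, which does not show that the genotypes differ.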

Additional observations from a re-analysis of the deposited data

Results flagged for a closer look

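In 1 of the 24 sets checked, each of 1 gene in 1 group of 4 or more libraries, 1 library stood apart from the rest. Gas6 in MyS7KO day 7 replicate 3 had 329 CPM, and the other 3 libraries of that group ran from 231 to 247 CPM. The gap to the nearest library was 0.839 of the group's range, above the critical value of 0.829 for 4 samples. Chance marks about 1 set in 20 by this rule, and 1 in 24 is close to that share, though the sets draw on the same libraries and are not independent. The same library had the highest Mertk (332 CPM), Itgb5 (725 CPM) and Elmo1 (158 CPM) and the lowest Axl (335 CPM) of its group, and the lowest sums of fibroblast (1775 CPM), endothelial (168 CPM) and mural (69.6 CPM) markers. Whether these go together was not tested.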

How the results depend on the processing

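Every count of the 8 genes called stayed within 1.5 times its value under all alternatives run, which is a loose bound for counts out of 8. The counts between genotypes and of differences between times were 0 of 8 in each, including the replicate block. A pairing of samples by replicate number was not shown, and so few pairs cannot exclude one. Over 10 same-numbered pairs the correlation of deviations ran from -0.298 to 0.45, and 4 of 10 correlated best with their own number. The block could be fitted for comparisons of genotype and for differences of the genotype effect between times, where it called 0 of 8 genes; the time comparisons were not run with it. DESeq2 called 51 genes of all tested between genotypes at day 7, none of the 8, where edgeR called 3. Among single genes, the Stab1 and Mertk calls named above were lost under the settings given there; Stab1 at day 3 in S7fl/fl ran from 0.31 to 0.53 when 1 library was left out, and Stab1 at day 7 in MyS7KO from -0.45 to -0.29. Signs turned in values that were not called: Axl at day 7 against baseline in S7fl/fl was 0.041 with sex as a term, Gas6 between genotypes at day 3 was -0.066 without the libraries of mixed sex signal and at day 7 0.043 with the replicate block, and Pros1 between genotypes at day 3 was 0.0073 without the filter and 0.0054 with sex as a term. For the difference of the genotype effect at day 7 and at baseline, Gas6 was 0.11 with the replicate block and 0.0054 with sex as a term, and for day 7 and day 3 Mfge8 was -0.039 with the replicate block. Leaving out 1 library at a time turned the sign of these further uncalled log2 values: day 7 against baseline in S7fl/fl, Axl -0.11 to 0.049, for the genotype effect at day 7 minus that at day 3, Axl -0.12 to 0.053, Elmo1 -0.13 to 0.031, Mertk -0.043 to 0.16, Mfge8 -0.046 to 0.33, between genotypes at day 3, Elmo1 -0.016 to 0.067, Gas6 -0.059 to 0.12, Mertk -0.12 to 0.028, Pros1 -0.055 to 0.021, Stab1 -0.16 to 0.0028, between genotypes at day 7, Elmo1 -0.11 to 0.04997, Mertk -0.097 to 0.11, between genotypes at baseline, Gas6 -0.11 to 0.013, Itgb5 -0.019 to 0.099, Pros1 -0.035 to 0.14, for the genotype effect at day 3 minus that at baseline, Pros1 -0.16 to 0.013, for the genotype effect at day 7 minus that at baseline, Pros1 -0.032 to 0.14. Counts of the 8 genes per library ran from 676 to 52438. The number of libraries, 3 to 5 a group, limits the precision.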
